A study of Caenorhabditis elegans with 30 samples.

Results

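The insulin-like peptide genes of *Caenorhabditis elegans* were followed in whole L3 larvae that differed in sex-chromosome karyotype and in the X chromosome dosage compensation machinery. Members were the genes of the deposited expression table whose public name begins with ins-, together with daf-28. This gave 40 of the 46170 genes of the table, 39 of them annotated as protein-coding and 1, ins-38, as a pseudogene. RNA was available as the authors' mean RPKM (read density scaled by transcript length and by the mapped reads of the library) of 4 groups. The first group was wild-type XX hermaphrodites of the N2 strain (4 libraries). The second was dpy-21(e428) XX hermaphrodites of strain EKM71 (4 libraries), which carry a mutation in a member of the dosage compensation complex. The others were XO animals of strain TY1072, which carry the alleles her-1(e1520) on chromosome V and sdc-2(y74) on the X and develop as hermaphrodites, on vector RNAi or on mys-1(RNAi) (5 libraries each). mys-1 encodes a histone acetyltransferase of the MYST family. All larvae were synchronized as hatched L1 and collected after 24 h on plates. In addition, peaks of H4K16ac (acetylated lysine 16 of histone H4) were available for wild-type XX and her-1;sdc-2 XO larvae, each called on 3 ChIP and 3 input libraries together. The labels of the XO ChIP and input libraries name no RNAi, unlike those of the XO RNA libraries.

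Insulin-like peptides are small secreted proteins with an insulin fold held by disulfide bonds, made in worms mostly by neurons and the intestine. They act on a single known insulin-like receptor, DAF-2, as agonists or as antagonists. Receptor signaling passes through the kinases AGE-1 and AKT-1 and keeps the FOXO transcription factor DAF-16 out of the nucleus, which sets dauer arrest, growth, stress resistance and lifespan.

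The expression file held 1 mean per group, without the spread between replicates or the depth behind it. No test can be run on such means, and every fold below is a ratio of 2 of them. Ratios are given as log2 with 0.1 RPKM added to both means, which understates the change of genes near 0. In whole larvae, fewer cells of a type and less RNA per cell cannot be told apart. As a check of the strains, sdc-2 was at 4.03 RPKM in wild type and 0.051 RPKM in XO vector RNAi, while her-1 at 1.70 and 434 RPKM. RNA of the RNAi target was not lower, with mys-1 at 15.7 RPKM on vector and 51.7 RPKM on mys-1(RNAi). This RNA level does not show whether the protein fell. The study reported by western blot that MYS-1 protein was no longer detected after the RNAi, and that blot is not analysed here. The libraries of this group are called the libraries labelled mys-1(RNAi), and no direction of MYS-1 activity is drawn from their RNA. dpy-21 RNA was at 29.6 RPKM in wild type and 30.1 RPKM in the mutant, so its level does not show the mutation.

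Promoter sequences are shown first, for the 2 members with the largest ratios between XO vector RNAi and wild-type XX among members on chromosomes II to X, because a shared GC-rich word could be read in them. Both are the 250 bases before the annotated gene start in WBcel235 (the RefSeq genome with Ensembl gene models), 5′ to 3′ on the gene's strand. Capitals mark the word GGCGGAG. The ins-39 promoter lies at chrX:1344422-1344671 on the minus strand, where the word starts 180 bases before the gene. The ins-20 promoter lies at chrII:6010594-6010843 on the plus strand, where it starts 60 bases before the gene.
ins-39: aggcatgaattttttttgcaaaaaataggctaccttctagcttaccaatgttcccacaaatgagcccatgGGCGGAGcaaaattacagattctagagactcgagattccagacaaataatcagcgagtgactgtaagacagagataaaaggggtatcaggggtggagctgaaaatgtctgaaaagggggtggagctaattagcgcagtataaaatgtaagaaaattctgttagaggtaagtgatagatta
ins-20: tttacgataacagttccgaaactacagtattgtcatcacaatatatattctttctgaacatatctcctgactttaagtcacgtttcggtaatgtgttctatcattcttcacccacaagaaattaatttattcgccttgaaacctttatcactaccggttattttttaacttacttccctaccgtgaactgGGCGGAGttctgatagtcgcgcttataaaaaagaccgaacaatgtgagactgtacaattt

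The word recurred in the family. On either strand it was in the 250 bases before 17 of the 40 members (42.5%), against 838 of 19973 protein-coding genes (4.20%) and 12 of 75 neuropeptide genes of the flp and nlp families (16%). The word was chosen after 5 member promoters had been read. These were picked on chromosomes II to X by the ratio between XO vector RNAi and wild type. ins-39, ins-20 and ins-14 were picked for large ratios, and ins-12 and ins-17 because their RNA hardly differed. Without those 5 it was upstream of 13 of 35 members (37.1%), and the members share ancestry and so are not independent of each other. It started 40 to 180 bases before the gene, with a median of 82 for the match nearest to the gene. In 3 members it occurred more than once. The letters are a description of these windows, and no factor was assigned to them.

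The sequence around the word, 20 bases on each side, is shown for the other members on chromosomes II and III that had it, so that the flanks can be compared. The match nearest to the gene is shown, and in each of these 8 it stood on the opposite strand, as CTCCGCC (capitals), while ins-4 also had the word on its own strand farther out. Over the 10 members shown, read on the strand that gives CTCCGCC, the next letters were CAT in 6. The windows lie at chrII:5990800-5990846 for ins-3, chrII:5996252-5996298 for ins-4, chrII:6000263-6000309 for ins-6, chrII:5556652-5556698 for ins-11, chrII:5554515-5554561 for ins-12, chrIII:4477667-4477713 for ins-17, chrIII:10026220-10026266 for ins-22 and chrIII:10028169-10028215 for ins-23.
ins-3: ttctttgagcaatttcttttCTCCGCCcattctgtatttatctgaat
ins-4: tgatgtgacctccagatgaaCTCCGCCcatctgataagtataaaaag
ins-6: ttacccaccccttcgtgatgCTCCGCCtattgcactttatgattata
ins-11: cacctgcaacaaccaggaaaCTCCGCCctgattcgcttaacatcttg
ins-12: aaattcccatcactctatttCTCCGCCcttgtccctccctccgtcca
ins-17: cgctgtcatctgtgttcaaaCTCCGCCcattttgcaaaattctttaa
ins-22: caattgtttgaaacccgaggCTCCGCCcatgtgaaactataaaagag
ins-23: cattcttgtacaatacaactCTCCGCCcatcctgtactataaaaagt

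Members with and without the word had similar RNA ratios. Of the members whose mean over XO vector RNAi and wild type was above 1 RPKM, 11 of 16 with the word and 9 of 12 without it were at least 2-fold higher in XO vector RNAi, with median log2 ratios of 1.62 and 1.65. Of all genes past this filter, 17.5% were. Both counts include members below 1 RPKM in wild type, 6 in all, which passed the filter through the XO group only. They were ins-20, ins-24, ins-25 and ins-39 with the word, and ins-21 and ins-34 without it. The word was upstream of ins-12 and ins-17, whose RNA hardly differed between these groups, as well as of ins-39 and ins-20. All of these were among the 5 promoters from which the word was chosen, so its presence there is no separate result. The 5 are also included in the counts above. By contrast, 2 words known for DAF-16 target genes were not frequent in the family. The DAF-16 binding element core GTAAACA was upstream of 2 members (5%, against 4.36% of protein-coding genes) and CTTATCA of 3 members (7.5%, against 8.20%).

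**Figure D1:**
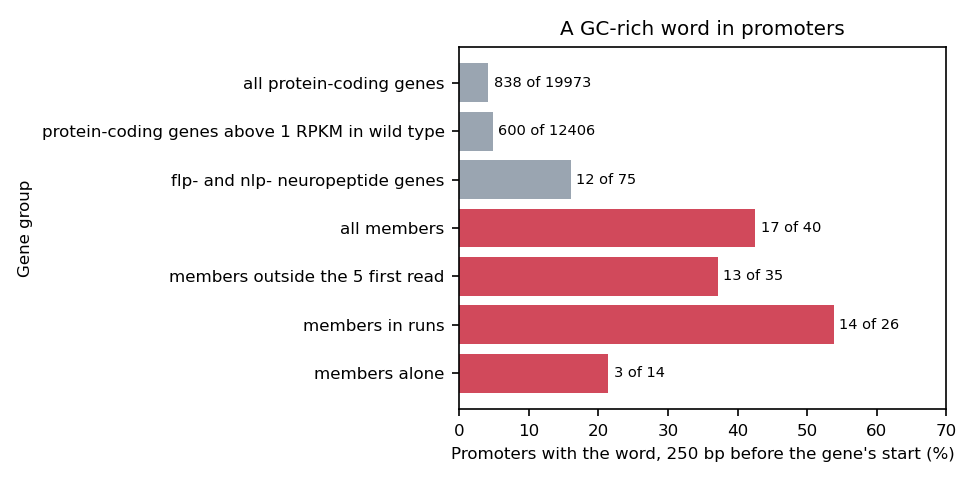
Share of promoters (x axis, percent) that hold the word GGCGGAG on either strand in the 250 bp before the gene's start, for each gene group (y axis), with the number of genes beside each bar and members in red. The word was upstream of 42.5% of the members and 4.20% of protein-coding genes, and of 53.8% of members in runs and 21.4% of members that stand alone.

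The family is laid out in groups of neighbours. Of the 40 members, 26 lay in 7 runs with gaps of at most 20 kb, and 14 stood alone. Chromosome II held 16 members, chromosome I 10, chromosome III 5, chromosome IV 4, chromosome V 3 and the X chromosome 2 (ins-9 and ins-39). The word was upstream of 14 of the 26 members in runs (53.8%) and 3 of the 14 alone (21.4%). The gene products are small, with transcripts of 134 to 955 bp (median 394) and coding regions of 67 to 218 codons. Each coding member had at least 6 cysteine codons (median 7, highest 18 in ins-31), cysteines being the residues that pair in the insulin fold.

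In wild-type XX larvae a few members made up most of the family's RNA. The summed level of the 40 members was 326 RPKM, of which ins-27 alone gave 33.1% and the top 4 members 67.6%. The top 6 were ins-27 (108 RPKM), ins-35 (47.2), ins-17 (36.6), daf-28 (28.8), ins-18 (26.5) and ins-12 (13.4). The median member was at 1.67 RPKM, 22 members were above 1 RPKM, and 6 were listed at 0. The same 6 members led in dpy-21 XX larvae, with ins-35 in a lower place, and ins-27 held 38.5% of the sum of 349 RPKM. In XO vector RNAi larvae the sum was 696 RPKM, 30 members were above 1 RPKM and 15 above 10 RPKM, compared to 7 above 10 RPKM in wild type. ins-33 and ins-39 entered the top 6 there, and the share of ins-27 was 21.9%. The libraries labelled mys-1(RNAi) had a sum of 657 RPKM and 32 members above 1 RPKM. ins-38 was listed at 0 in each of the 4 groups.

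**Figure D2:**
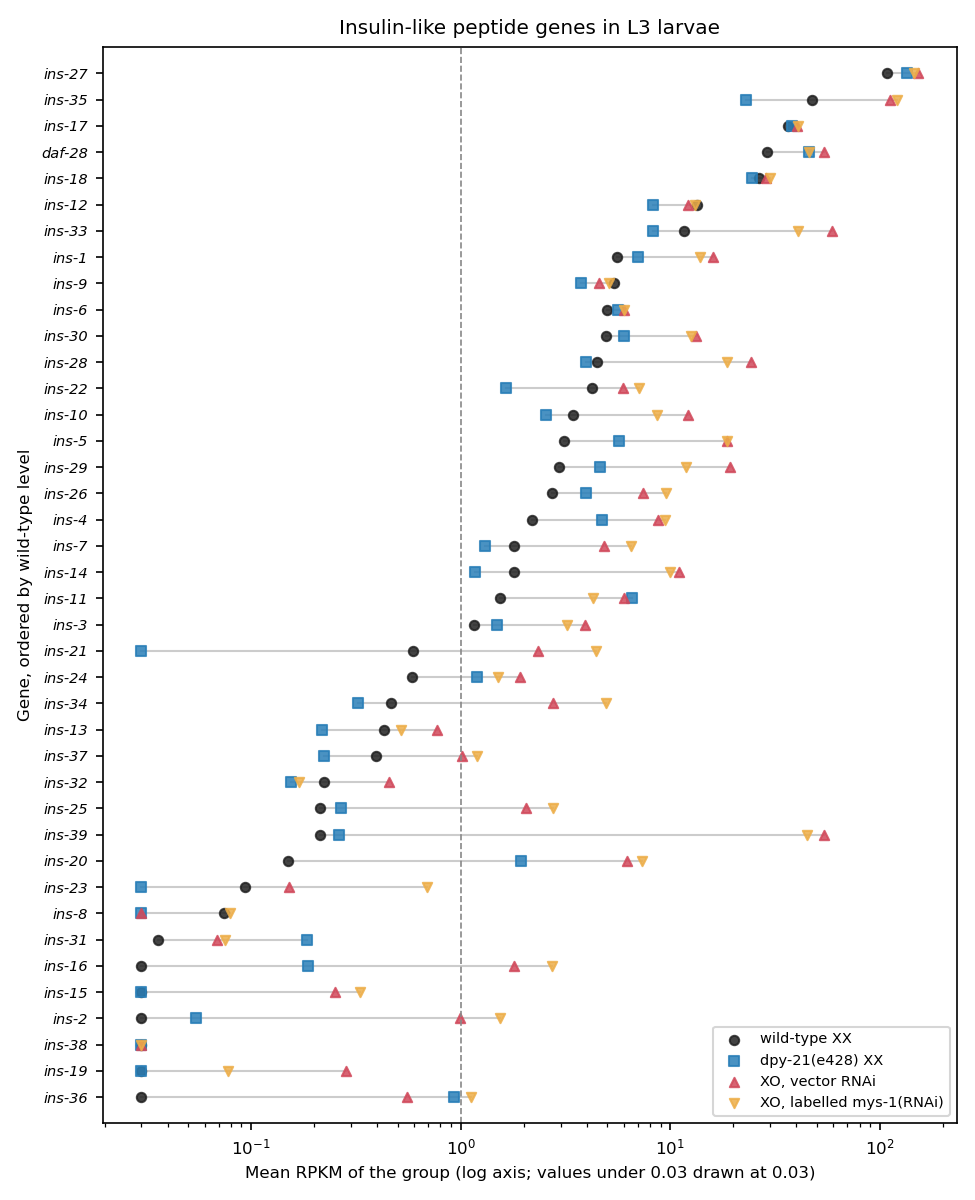
Mean RPKM (x axis, log scale) of each of the 40 members (y axis, ordered by wild-type level) in wild-type XX, dpy-21(e428) XX, XO vector RNAi and XO labelled mys-1(RNAi) larvae; each point is 1 group mean without replicate error and the dashed line is 1 RPKM. XO vector RNAi is above wild type in 36 of 40 members, the groups are close for ins-17, ins-18 and ins-6, and ins-39 spans from 0.213 to 54.2 RPKM.

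The comparison of XO vector RNAi with wild-type XX gave the widest differences in the family. These groups differ in karyotype, in the her-1 and sdc-2 alleles, and in food and plates, as the XO animals were grown on RNAi bacteria, and these cannot be told apart. Of the 40 members, 36 were higher in XO vector RNAi, 3 lower and 1 equal. The mean of both groups was above 1 RPKM for 28 members. Of these, 20 were at least 2-fold higher, compared to 17.5% of the 15240 genes that passed the same filter, and 0 were at least 2-fold lower, compared to 7.29%. The median log2 ratio was 1.62 for these members and 0.18 for these genes.

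A member that is high in 1 group only passes this filter through that group, which was the case for 6 of the 28. With each group required to be above 1 RPKM, 14 of 22 members were at least 2-fold higher, compared to 12.3% of 13658 genes, and the median was 1.40 against 0.15 for these genes. Most of these members past 2-fold were of low wild-type level, where genes in general also passed more often. The levels are set by the wild-type mean, which is also the denominator of the ratio. At 1 to 10 RPKM in wild type, 12 of 15 members were at least 2-fold higher (19.1% of genes at this level), and above 10 RPKM 2 of 7 (6.24% of genes).

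**Figure D3:**
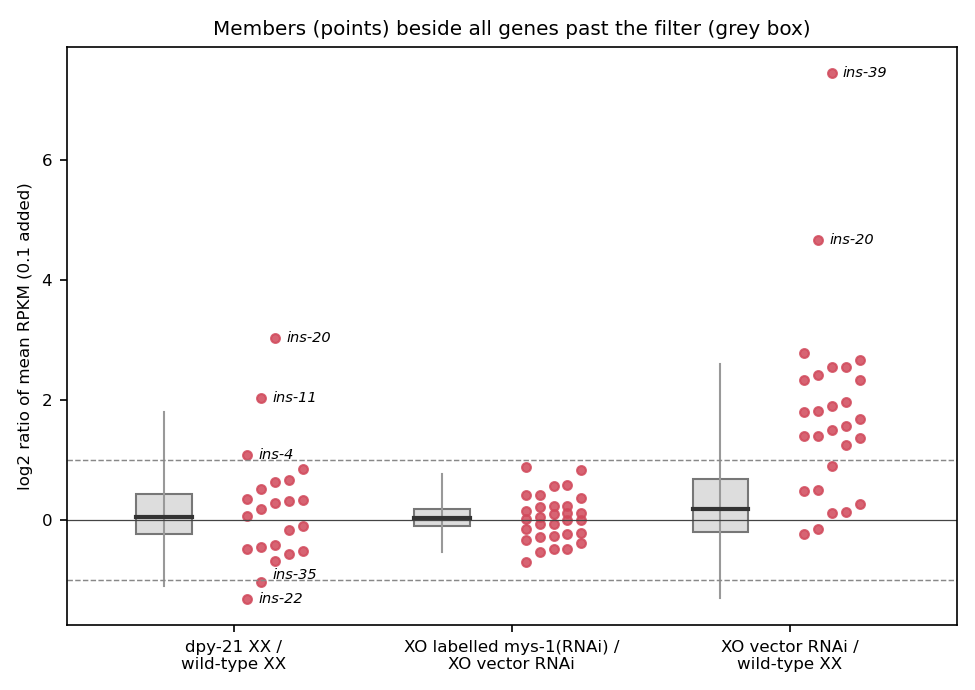
log2 ratio of mean RPKM (y axis, 0.1 RPKM added) in 3 comparisons (x axis) for members whose mean was above 1 RPKM (red points, 1 per gene) beside all genes that passed the same filter (grey box, 25th to 75th percentile with the median; line, 5th to 95th percentile); dashed lines mark 2-fold. Members centre on 1.62 in XO vector RNAi against wild type, and on 0.18 and 0.01 in the other comparisons.

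Agonists of DAF-2 that prevent dauer arrest did not move as 1 block. daf-28, made by sensory neurons, was at 28.8 RPKM in wild type, 46.0 in dpy-21, 54.02 in XO vector RNAi and, for the libraries labelled mys-1(RNAi), 46.2, so each other group was above wild type and none reached 2-fold. ins-6, which also promotes exit from dauer, was level, at 4.97, 5.66, 6.02 and 5.99 RPKM in the same order. Its neighbour ins-4, a further agonist, was at 2.18, 4.72, 8.78 and 9.39 RPKM, lowest in wild type and highest in XO.

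ins-3 was at 1.16, 1.496, 3.93 and 3.21 RPKM, and ins-7, known for feedback from the intestine to other tissues, at 1.81, 1.30, 4.83 and 6.48 RPKM. In both, the XX groups were close and the XO groups were higher. Of these agonists ins-33 had the largest ratio, at 11.6 and 8.27 RPKM in the XX groups and 58.9 and 40.6 RPKM in the XO groups. Its log2 ratio between XO vector RNAi and wild type was 2.33, compared to 1.96 for ins-4, 1.68 for ins-3, 1.37 for ins-7, 0.90 for daf-28 and 0.27 for ins-6.

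Of 3 antagonists, 2 were level. ins-17 was at 36.6, 38.1, 40.3 and 40.6 RPKM and ins-18 at 26.5, 24.6, 28.8 and 29.8 RPKM in wild type, dpy-21, XO vector RNAi and XO labelled mys-1(RNAi). Their log2 ratios between XO vector RNAi and wild type were 0.14 and 0.12, among the members nearest to 0. ins-1, the antagonist most like human insulin, differed from them, at 5.60 and 7.06 RPKM in the XX groups and 16.06 and 13.8 RPKM in the XO groups (log2 1.505).

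ins-35, an intestinal member, was the second most abundant in wild type and in both XO groups. It was at 47.2 RPKM in wild type, 22.9 in dpy-21, 112 in XO vector RNAi and 121 in XO labelled mys-1(RNAi), so the dpy-21 and XO groups lay on opposite sides of wild type. ins-11, a member that signals from the intestine to neurons, was at 1.54, 6.60, 6.02 and 4.28 RPKM and was lowest in wild type. ins-32 stayed under 1 RPKM in each group, at 0.224, 0.154, 0.457 and 0.170 RPKM.

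ins-39, with 2 exons at chrX:1343758-1344421 on the minus strand, stood apart. It was at 0.213 RPKM in wild type, 0.262 in dpy-21, 54.2 in XO vector RNAi and 45.02 in XO labelled mys-1(RNAi). Both XX groups were near 0 and both XO groups among the highest of the family. The log2 ratio between XO vector RNAi and wild type was 7.44, above 99.75% of the 15240 genes, with 37 genes above it. ins-39 passed the filter through the XO group only. With a wild-type value this near 0, the size of the ratio and its rank depend on the 0.1 RPKM added. ins-39 gave 0.0653% of the family's sum in wild type and 7.78% in XO vector RNAi. The other X-linked member, ins-9, was at 5.40, 3.74, 4.59 and 5.12 RPKM, with the lowest ratio of the members that passed the filter (log2 -0.23).

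Among the remaining members, ins-20 was at 0.150, 1.94, 6.23 and 7.36 RPKM, lowest in wild type and intermediate in dpy-21 (log2 4.66 between XO vector RNAi and wild type). ins-14 was at 1.79, 1.18, 10.96 and 9.93 RPKM (log2 2.55), ins-5 at 3.11, 5.67, 18.6 and 18.6 RPKM (log2 2.54) and ins-10 at 3.43, 2.56, 12.1 and 8.64 RPKM (log2 1.79). In each of these the XO groups were above both XX groups. ins-12 was at 13.4, 8.28, 12.1 and 13.1 RPKM (log2 -0.14) and ins-22 at 4.21, 1.64, 5.96 and 7.07 RPKM (log2 0.49), lowest in dpy-21 in both.

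Some members were close to or below 1 RPKM in XX and are less certain for that reason. ins-21 was at 0.594, 0, 2.35 and 4.43 RPKM, and ins-34, which shares 16.2% of its exonic bases with nkcc-1, at 0.463, 0.323, 2.74 and 4.95 RPKM. ins-16 was listed at 0 in wild type and was at 0.188, 1.80 and 2.73 RPKM in the other groups, and ins-2 was listed at 0 in wild type and was at 0.0549, 0.993 and 1.55 RPKM. ins-37 was at 0.396, 0.222, 1.01 and 1.201 RPKM, and ins-36 was listed at 0 in wild type and was at 0.933, 0.554 and 1.12 RPKM. In these 6 the libraries labelled mys-1(RNAi) were the highest group. The libraries were not stranded, and ins-36 and ins-37 share 10.5% and 20.1% of their exonic bases with other genes, ins-10 18.9% with vps-39 and ins-13 28.2% with acdh-2, so reads of these genes cannot be fully told apart. Without the members that share exonic bases, 18 of 26 were at least 2-fold higher in XO vector RNAi. The other members, ins-8, ins-13, ins-15, ins-19, ins-23, ins-31, ins-32 and ins-38, stayed below 1 RPKM in each group.

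The members of a run differed widely in level. In XO vector RNAi 23 of the 26 members in runs and 13 of the 14 alone were above wild type. Of those that passed the filter, 14 of 18 in runs and 6 of 10 alone were at least 2-fold higher, compared to 17.5% of all genes that passed. These counts, and those of single runs below, include members below 1 RPKM in wild type that passed through the XO group only. They were ins-20, ins-21, ins-24 and ins-25 in runs, and ins-34 and ins-39 alone. Neighbours could also differ, as with ins-12 (log2 -0.14) and ins-11 (1.90) on chromosome II, or ins-8, under 1 RPKM in each group (-0.80), and ins-7 (1.37) on chromosome IV. The run on chromosome I (14012369 to 14037777 in WBcel235, 25.4 kb) held 7 members. ins-27 was at 108, 134, 152 and 146 RPKM in the 4 groups, and ins-25, in the same run, at 0.213, 0.268, 2.04 and 2.75 RPKM. ins-28 was at 4.48, 3.98, 24.3 and 18.6 RPKM and ins-29 at 2.95, 4.62, 19.3 and 11.8 RPKM. Those 3 neighbours at the left end had log2 ratios of 2.41 to 2.78 between XO vector RNAi and wild type. On the right side ins-24 was at 0.587, 1.202, 1.93 and 1.52 RPKM, ins-30 at 4.96, 6.03, 13.3 and 12.59 RPKM and ins-26 at 2.74, 3.98, 7.41 and 9.58 RPKM, with log2 ratios of 1.56, 1.40 and 1.40. ins-27, the most abundant member of the family, had the lowest ratio of the run (0.50). Of the 7, 6 were at least 2-fold higher. The run on chromosome II (5988524 to 6011321, 22.8 kb) held ins-2 to ins-6 and ins-20, and 4 of its 5 members that passed the filter were at least 2-fold higher, the exception being ins-6.

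**Figure D4:**
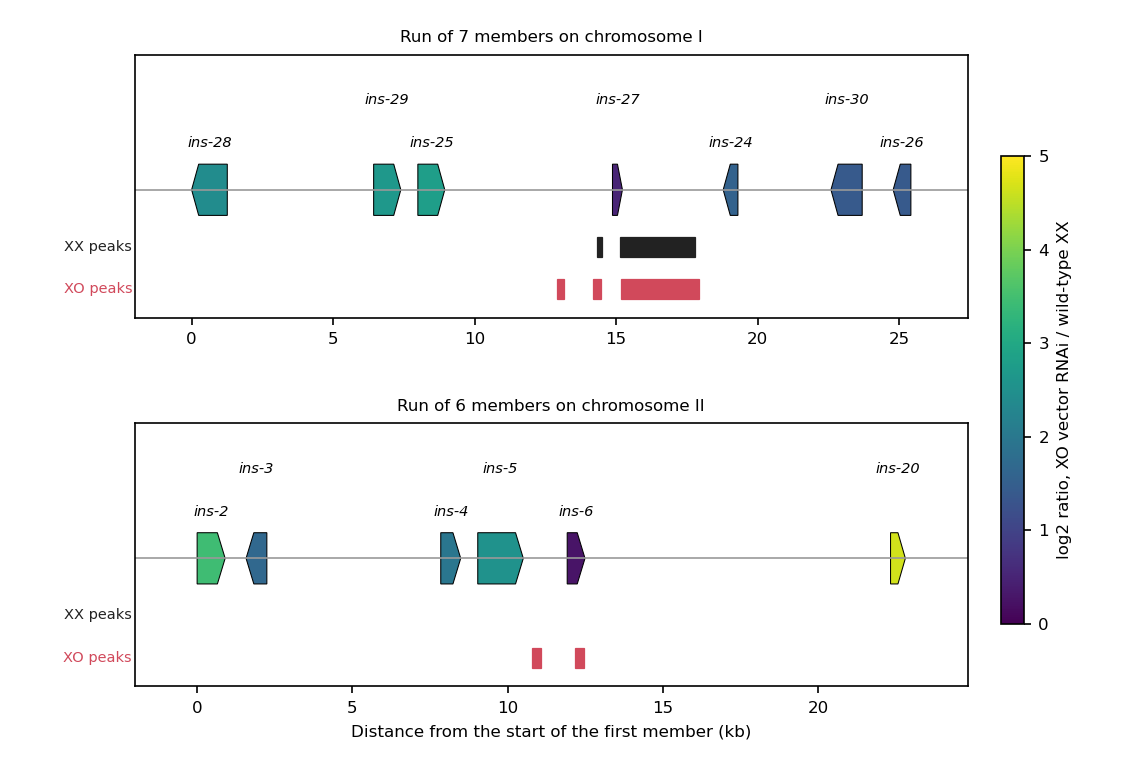
Map of the 2 largest runs of members, on chromosome I (7 members) and chromosome II (6 members), by distance from the start of the first member (x axis, kb); arrows point along the direction of transcription and are coloured by the log2 ratio of XO vector RNAi to wild-type XX, and boxes below are H4K16ac peaks in XX (black) and XO (red). ins-27 has the lowest ratio of the upper run (0.50) and lies beside peaks in both lists, and the lower run has no XX peak.

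In dpy-21 XX against wild-type XX the members were spread to both sides. Of the 40, 20 were higher, 17 lower and 3 equal, and the median log2 ratio of the 23 that passed the filter was 0.18, compared to 0.04 for all genes that did. At least 2-fold higher were 3 of the 23, compared to 11% of 14791 genes, and these were ins-20 (log2 3.03), ins-11 (2.03) and ins-4 (1.08). At least 2-fold lower were 2, compared to 5.67% of genes, and these were ins-22 (-1.31) and ins-35 (-1.04). With each group above 1 RPKM, which leaves out ins-20 (0.150 RPKM in wild type), 2 of 22 were higher, compared to 7.41% of 13569 genes, and 2 lower, compared to 3.36%. With so few members these counts are not read as different from those of all genes. This comparison shares its wild-type libraries with that of XO vector RNAi, so a low wild-type value raises a member in both.

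In the libraries labelled mys-1(RNAi) against XO vector RNAi no member that passed the filter was past 2-fold. Of the 31 members that passed the filter, 0 were at least 2-fold higher, compared to 3.61% of 15785 genes, and 0 at least 2-fold lower, compared to 2.83%. All 31 were protein-coding, and of the 13303 coding genes that passed only 0.857% were higher and 0.263% lower. The counts of 0 are therefore not read as different from those of coding genes. The log2 ratios ran from -0.70 (ins-29) to 0.89 (ins-21), with a median of 0.01 compared to 0.03 for all genes that passed. Of the 40 members, 22 were higher, 17 lower and 1 equal. ins-39 was 54.2 and 45.02 RPKM in these groups and ins-33 58.9 and 40.6 RPKM, while ins-34 was 2.74 and 4.95 RPKM.

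The genes on which the peptides act had smaller ratios than the peptides, but also higher levels. Of 15 genes of the receptor and its cascade, 0 were at least 2-fold higher or lower in XO vector RNAi than in wild type, and their median log2 ratio was 0.37. The lowest of them in wild type was ist-1 at 8.17 RPKM, while the median member was at 1.67 RPKM. Members above 10 RPKM in wild type had a median log2 ratio of 0.50, with 2 of 7 at least 2-fold higher. Those at 1 to 10 RPKM had a median of 1.68, with 12 of 15 higher. Whether the peptides and the cascade differ at matched levels was not tested. daf-2, the receptor, was at 17.8 RPKM in wild type and 29.3 in XO vector RNAi, akt-1 at 37.4 and 69.5, and daf-16 at 72.5 and 82.7 RPKM. age-1, the kinase below the receptor, was at 8.87 and 11.3 RPKM, and daf-18, the phosphatase that opposes it, at 9.30 and 13.1 RPKM. Of 10 genes for peptide processing and secretion in the table, 1 was at least 2-fold higher, the carboxypeptidase gene cpd-1 (log2 1.04), and 0 lower.

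Of 12 DAF-16 targets that passed the filter, 5 were at least 2-fold higher in XO vector RNAi and 1 lower, compared to 17.5% and 7.29% of all genes. They were hsp-12.6, a small heat shock protein gene (log2 4.15), dod-3 (3.98), the metallothionein gene mtl-1 (3.98), the lysozyme gene lys-7 (1.23), gpd-2 (1.01) and, lower, dod-24 (-1.77). sod-3, a superoxide dismutase gene often used as a reporter of DAF-16, was at 3.05 RPKM in wild type and 5.90 RPKM in XO vector RNAi. hsp-12.6 and mtl-1 were below 1 RPKM in wild type and passed the filter through the XO group. With each group above 1 RPKM, 3 of 10 were higher and 1 lower. The list was not divided by whether DAF-16 raises or lowers each gene, so these directions are not read as DAF-16 activity.

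Markers of tissues also moved between these groups, and their part in the peptides' values was not tested. Of 9 neuronal markers that passed the filter 3 were at least 2-fold higher in XO vector RNAi and 0 lower (median log2 0.64), with flp-1, a neuropeptide gene, at 1.78, tph-1 at 1.43 and osm-6 at 1.38. The last pair were below 1 RPKM in wild type, and with each group above 1 RPKM 1 of 7 was higher. The summed RPKM of the 10 neuronal markers was 643 in wild type and 886 in XO vector RNAi. Of 3 pharyngeal markers 2 were at least 2-fold higher, the myosin genes myo-1 (log2 2.27) and myo-2 (2.03), while pha-4 was at 0.49. Body muscle markers had a median of 0.88 with 0 of 4 past 2-fold. Intestinal markers were level (median 0.05, 0 of 6 past 2-fold), and 2 of 5 hypodermal markers were at least 2-fold lower, dpy-13 (-1.29) and nhr-25 (-1.02), while dpy-7 and elt-1 had ratios of 0.70 and 0.57 and rol-6 of -0.84. Germ line markers (median 0.28, 0 of 5 past 2-fold) were closer to 0. Of 8 genes listed as late larval and adult, only lin-41 (log2 0.02) and lin-29 (0.09) passed the filter (median 0.06, 0 of 2 past 2-fold). The vit genes and sperm (msp) genes of that list did not pass, with msp-3 and msp-19 listed at 0 in each group. Whether the groups matched in stage was not tested.

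**Figure D5:**
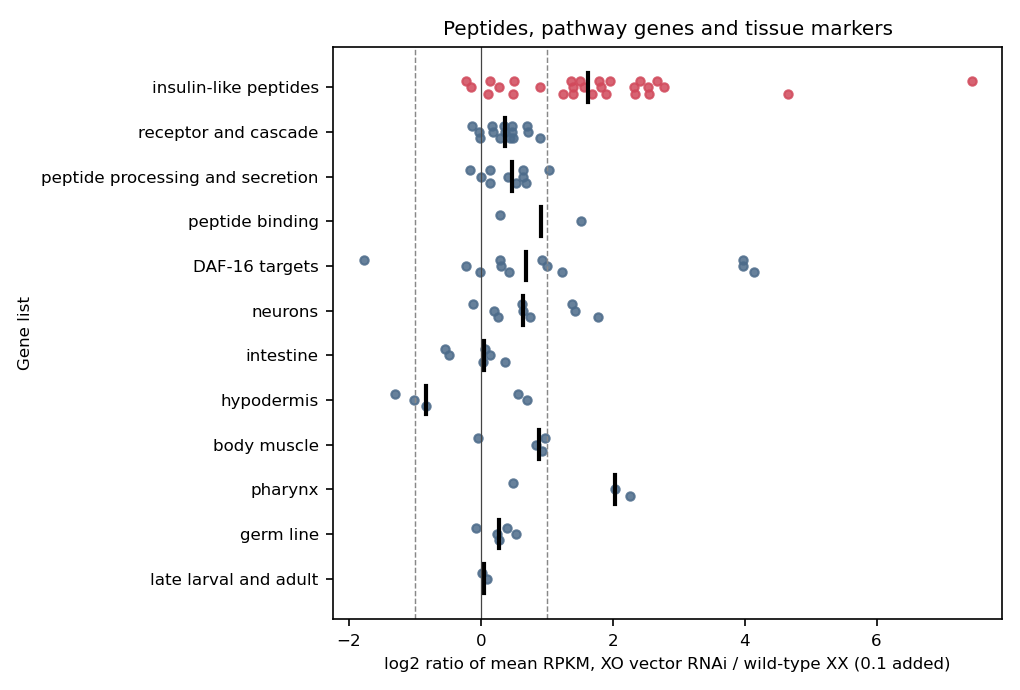
log2 ratio of mean RPKM between XO vector RNAi and wild-type XX (x axis, 0.1 RPKM added) for genes whose mean was above 1 RPKM, by gene list (y axis); points are genes, black bars are list medians and dashed lines mark 2-fold. The peptides (red) have a median of 1.62, the receptor and cascade of 0.37, the neuronal markers of 0.64 and the intestinal markers of 0.05.

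H4K16ac peaks were less frequent at members than at other coding genes. In XX, 7 of 40 members (17.5%) had a peak in the 500 bp upstream of the gene's start, compared to 43.4% of 19973 protein-coding genes. In XO the numbers were 7 of 40 (17.5%) and 49.6%. Of members above 1 RPKM, 4 of 22 had one in XX and 5 of 30 in XO, compared to 59.0% and 63.9% of coding genes above 1 RPKM. The XO levels are those of vector RNAi larvae, while the XO ChIP labels name no RNAi. The 5 members with a promoter peak in both were ins-14, ins-15, ins-17, ins-27 and ins-37, with an overlap of only 1 bp for ins-15 in XO. ins-10 and ins-36 had one in XX only, ins-8 and ins-34 in XO only, and 31 members in neither.

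Members with a promoter peak ranged widely in level, as did those without one. ins-27 and ins-17, which were among the most abundant members, had one in both lists. ins-15, which was listed at 0 in wild type, was also counted in both. Its XO peak reached the promoter by 1 bp, and its XX peak, 13890 bp wide, was the one counted for ins-14. daf-28, in the top 6 in wild type, lay 55181 bp from the nearest XX peak and 56697 bp from the nearest XO peak. ins-39, with 0.213 RPKM in wild type and 54.2 RPKM in XO vector RNAi, had no promoter peak in either, and the nearest peaks were 3116 bp away in XX and 1154 bp in XO. The median distance from a member to its nearest peak was 5286 bp in XX and 3018 bp in XO, compared to 16 and 0 bp for protein-coding genes. A distance was 0 where a peak overlapped the gene, which longer genes reach more easily. Gene length was not matched, and members of the same run can share their nearest peak. The XO list is longer (15186 peaks, compared to 8734 in XX), so distances in the 2 lists are not compared with each other. The peak lists carried no height, and each was called once on pooled libraries, so a peak in 1 list only has no replicate check.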

How the data were processed

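RNA was measured by non-stranded mRNA-seq in whole L3 larvae and H4K16ac by ChIP-seq. The authors trimmed reads with Trim Galore 0.3.7, aligned RNA reads to WS235 with TopHat2 2.0.13, computed RPKM with Cufflinks 2.2.1, spreading reads with several hits, and deposited 1 mean RPKM per group. ChIP reads were aligned with Bowtie 1.1.1, and broad peaks were called with MACS2 2.1.0 from the pooled replicates of each strain. Peak files as deposited hold positions only. A deposited table of the authors' DESeq2 fold changes and adjusted p-values was not used. Samples were grouped by the labels' strain and RNAi.

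Members and lists were chosen with earlier results of these data known. Of the 46170 genes, 45871 matched the WBcel235 annotation (Ensembl release 115). With Python 3.11.15, numpy 2.4.6 and pandas 2.3.3, log2 ratios of the means plus 0.1 RPKM were taken for genes whose mean over both groups exceeded 1 RPKM, a filter from the study's methods, and counted past 2-fold. The calculation was checked on simulated data. Members above 1 RPKM in any group, past 2-fold, or of known role are named with values, and pathway genes past 2-fold or central to the pathway. Promoter overlaps needed at least 1 bp. Alternatives changed the pseudocount, filter, fold, centring, promoter window, peak width and overlap. Gene lists named rab-27, tbc-4 and opt-2, which were not matched by name. Depth per library is not in the values, so no interval is given. Repeated 50-mers were found in 1 member, ins-37 (16.3% of its 50-mers).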

Additional observations from a re-analysis of the deposited data

How the results depend on the processing

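Of 36 alternatives, 24 stayed within 1.5 times of the count or 0.1 of the median log2 ratio, and 12 went beyond. With 1 RPKM added, the median of members in XO vector RNAi against wild type was 1.24, and 3 members instead of 5 passed 2-fold in dpy-21. Of all genes, 8.70% were then higher and 4.63% lower in dpy-21. With means above 5 RPKM, the median in XO vector RNAi was 1.40, 12 of 19 members were higher there (12.2% of genes), and 1 of 10 passed in dpy-21. Under this filter 7.39% of genes were higher and 3.79% lower in dpy-21. With no filter, 9 passed in dpy-21 and 3 in XO labelled mys-1(RNAi), and at a fold of 1.5 there were 9 and 4. With at least 250 bp of overlap, 4 members had a promoter peak in XX and 4 in XO, and with the gene body included 12 of 40 had one in XO. In the gene itself 11 members had an XO peak, compared to 60.3% of coding genes. No share of coding genes is given for the wider overlap. The filter on each group, the gene body and leaving out members with shared exonic bases were chosen after seeing the data. In XO vector RNAi 0 members were 2-fold lower under any of these settings. Centring on the autosomal median left each count of members as it was, though the share of all genes 2-fold higher in XO vector RNAi was then 14.4% and lower 9.33%. The median in XO labelled mys-1(RNAi) was -0.03 at means above 5 RPKM. No paired analysis was possible because the files hold group means only, and no library could be left out for the same reason. Values near 0 RPKM rest on an unknown number of reads.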
